A study of Homo sapiens with 18 samples.

Results

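The regions described here were 61621 narrow peaks of open chromatin that lay inside introns and far from any transcript start, 18.4% of the 334857 consensus peaks of the series. A peak was taken when it lay on an autosome, was shorter than 1000 bp, had its centre within the body of a protein-coding gene but in no annotated exon, and had its centre more than 10000 bp from every annotated transcript start (hg38, GENCODE release 44). The rule used position and width and no measured level. Chromatin accessibility had been profiled by bulk ATAC-seq, an assay in which a transposase tags open DNA. The cells were Ccd18-Co, a human colon fibroblast line, and each of 3 groups had 6 libraries. Unstimulated cells received neither cytokines nor drug. Both stimulated groups were pulsed 3 times, for 72 h with 96 h of recovery, with IL-1β at 0.1 ng/ml and with IL-17A, TNF and OSM at 10 ng/ml each, and after a week of rest they were given DMSO, the solvent, or 250 nM belinostat for 5 days and collected 2 weeks later. Doses follow the labels. Elsewhere in the study a higher concentration of belinostat and, in places, a lower one of IL-1β are stated. The 18 libraries come from 1 cell line, and no label says that they came from separate cultures, so p-values measure the spread between these libraries. Below, the cytokine comparison is DMSO against unstimulated libraries, the belinostat comparison is belinostat against DMSO libraries, and the residual comparison is belinostat against unstimulated libraries. The study states a constant DMSO dilution over its treatment groups, but no label gives DMSO to the unstimulated libraries. By the labels, cytokines and solvent cannot be told apart in the cytokine comparison. Wording such as opened by cytokines names that comparison.

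Introns of long genes carry many of the distal regulatory elements of a cell, enhancers among them, which are bound by transcription factors at short DNA sequences and can act on promoters far away. In fibroblasts such elements are often bound by AP-1, the dimer of FOS and JUN proteins, by TEAD proteins, the partners of the Hippo pathway coactivators YAP and TAZ, by RUNX and C/EBP proteins, and by basic helix-loop-helix factors such as TWIST1, which bind E-boxes. Belinostat inhibits histone deacetylases, the enzymes that remove acetyl groups from histone tails.

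The narrow intronic peaks fell in 6460 genes, with a median of 4 peaks per gene. In 1211 genes there was 1 such peak, in 1813 there were at least 10, and in 35 there were at least 100. A single protein-coding gene held 59697 of them, and 56610 of these overlapped no non-coding gene. In 54042 the centre lay in an intron of the canonical transcript, with a median intron length of 48947 bp, and in 13694 this was the first intron. The median distance was 22133 bp to the nearest start and 11640 bp to the nearest exon, 9784 peaks lay more than 50 kb from a start, and the most distant lay 487681 bp away. Their median width was 262 bp and 50757 were narrower than 500 bp. They were poorer in GC than the series at large, with a median of 47.7% against 50.1% for all peaks and 59.2% for the 38735 peaks centred within 1 kb of a protein-coding start (called start peaks below). In the central 200 bases they held 2.28 CpG dinucleotides on average, against 3.75 in all peaks and 10.9 in start peaks. The description of these differences in composition carries no test.

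Most of the narrow intronic peaks were weak. All 61621 passed the filter on low values, an average log2 CPM over -3, and their averages ranged from -1.11 to 6.66. Only 22.2% reached an average log2 CPM of 1, compared with 28.6% of all peaks and 58.3% of start peaks, and these 13661 peaks are called strong below. A median narrow intronic peak held 3 to 8 counts per library. The counts in peaks ran from 4661678 to 11352032 per library and were lowest in the belinostat group, at 4661678 to 6370845, against 6488975 to 8066642 in the DMSO group. In unstimulated replicate 6, 11.8% of the narrow intronic peaks had a count of 0, and the next highest share was 5.97%, in belinostat replicate 1. All 8 fibroblast marker genes searched (COL1A1, COL1A2, COL3A1, PDGFRA, PDGFRB, THY1, TWIST1 and PRRX1) had a start peak. So had 4 of 5 epithelial, 4 of 5 immune, 4 of 4 endothelial, 3 of 3 smooth muscle and 2 of 3 neural genes. The summed CPM (counts scaled to the size of the library) of the fibroblast list was 322 to 369 in unstimulated, 231 to 301 in DMSO and 200 to 302 in belinostat libraries. The other lists, of 3 to 5 genes each, summed to between 2.58 and 40.5 in every library. Per gene, the median CPM was 23.7 for the fibroblast list and 1.88 to 7.15 for the others. Single genes overlapped, from 6.56 for the lowest fibroblast gene to 21.8 for the highest smooth muscle gene. The genes with no start peak included KRT20 and SPI1, and accessibility of a start is not expression. In bulk libraries, fewer cells with an open site and less accessibility per cell cannot be told apart.

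Sequences of the central 200 bases (hg38, plus strand, 5′ to 3′) are shown for the peaks with the largest changes in the cytokine and in the belinostat comparison among strong, called peaks whose groups of libraries did not overlap, so that the sites described below can be read directly. Capitals mark every match, on either strand, to the 14 fixed words searched, each written as its plus-strand letters.
CPXM2 (chr10:123858196-123858395): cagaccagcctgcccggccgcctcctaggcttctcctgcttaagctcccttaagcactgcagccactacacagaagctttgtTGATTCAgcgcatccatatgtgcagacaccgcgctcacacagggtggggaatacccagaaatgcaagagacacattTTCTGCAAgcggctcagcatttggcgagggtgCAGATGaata
PIGU (chr20:34605119-34605318): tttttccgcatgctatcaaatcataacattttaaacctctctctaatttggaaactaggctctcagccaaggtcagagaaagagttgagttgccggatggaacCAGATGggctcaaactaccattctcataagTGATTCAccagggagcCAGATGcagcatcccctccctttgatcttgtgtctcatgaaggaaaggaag
ASIC2 (chr17:33766740-33766939): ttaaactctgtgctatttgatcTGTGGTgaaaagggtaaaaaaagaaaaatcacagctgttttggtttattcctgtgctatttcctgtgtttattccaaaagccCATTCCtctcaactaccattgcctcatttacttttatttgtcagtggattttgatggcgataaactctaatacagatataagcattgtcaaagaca
NTM (chr11:132062669-132062868): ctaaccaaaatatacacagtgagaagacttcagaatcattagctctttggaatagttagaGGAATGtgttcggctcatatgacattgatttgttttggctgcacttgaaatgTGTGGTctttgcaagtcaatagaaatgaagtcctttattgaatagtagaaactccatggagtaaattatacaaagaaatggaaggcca
LIMCH1 (chr4:41632517-41632716): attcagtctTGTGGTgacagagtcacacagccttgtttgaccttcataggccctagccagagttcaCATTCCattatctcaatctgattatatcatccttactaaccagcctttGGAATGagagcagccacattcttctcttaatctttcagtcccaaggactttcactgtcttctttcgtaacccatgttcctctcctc
KIRREL3 (chr11:126459767-126459966): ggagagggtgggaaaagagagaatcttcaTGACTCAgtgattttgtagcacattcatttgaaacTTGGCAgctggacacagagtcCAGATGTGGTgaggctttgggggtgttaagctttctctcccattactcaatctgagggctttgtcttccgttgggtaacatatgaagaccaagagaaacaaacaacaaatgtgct
JAZF1 (chr7:28163995-28164194): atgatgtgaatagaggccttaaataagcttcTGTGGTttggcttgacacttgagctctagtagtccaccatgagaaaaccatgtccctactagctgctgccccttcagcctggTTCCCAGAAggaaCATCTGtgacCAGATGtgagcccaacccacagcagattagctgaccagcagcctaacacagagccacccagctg

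The words found in these windows were TGANTCA (AP-1), GGAATG (TEAD), TGTGGT (RUNX), TTGCNNAA (C/EBP), TTCNNNGAA (STAT), CAGATG (an E-box that TWIST1 can bind) and TTGGCA (NFI), where N is any base. A match describes letters and does not show that a factor was bound. CPXM2, which led the openings with cytokines among these, held an AP-1, a C/EBP and an E-box word. PIGU, which led the closings, held an AP-1 word and a pair of E-boxes. ASIC2 held a TEAD and a RUNX word, as did NTM and LIMCH1, the peaks shown for opening with belinostat, and in LIMCH1 the TEAD word occurred on both strands. KIRREL3 held AP-1, NFI, E-box and RUNX words, of which the E-box and the RUNX word overlap, and JAZF1 held a RUNX word, a STAT word and E-boxes on both strands. Among all narrow intronic peaks, 16.2% held the AP-1 word, 16.8% the TEAD word, 17.7% the RUNX word, 20.2% the E-box and 10.9% the C/EBP word in this window. Across all peaks the shares were 14.1%, 15.5%, 16.4%, 18.7% and 9.72%. The GC-rich word of SP and KLF factors, GGGCGG, was in 3.72% of narrow intronic peaks and 31.6% of start peaks.

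The cytokine comparison asked which sites still differed after the pulses and rest. At an adjusted p under 0.05 (edgeR's quasi-likelihood test with Benjamini-Hochberg adjustment over all 334857 peaks), 5612 narrow intronic peaks (9.11%) were opened in DMSO libraries, against 9.51% of all peaks. Closing was called for 4048 (6.57%), against 9.73% of all peaks. The opened share is thus near the background, and the closed share is below it. The balance depended on the scaling of the libraries. Relative to the TMM scaling used, library totals moved the median fold change over all peaks (log2) from 0.13 to 0.34 and gave 9574 opened and 1448 closed, whereas TMM over the weaker 50% of peaks shifted it to -0.30 and gave 1362 and 13273. Loess offsets, which reduce the trend of each library with peak strength, gave 1593 opened and 1064 closed. Without unstimulated replicate 6 the opened share was 5.18% and the closed share 4.21%. It was 5.98% opened without unstimulated replicate 1 and 5.62% without DMSO replicate 4. Given these shifts, single peaks whose libraries stand apart are described next.

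Strong narrow intronic peaks that were called, and whose 6 DMSO libraries all lay above the 6 unstimulated ones, numbered 78 (0.127%, against 0.176% of all peaks). Those with all DMSO libraries lower numbered 1254 (2.04%, against 3.51%). These shares, and the like ones below, run over weak peaks as well as strong ones. Values below are log2 CPM, given as the lowest, median and highest of 6 libraries, and fold changes are given as log2 with their standard error (SE).

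Among these peaks the largest opening lay in intron 3 of CPXM2, which encodes a carboxypeptidase-like secreted protein, at chr10:123857828-123858764. Unstimulated libraries had 0.24, 0.64 and 1.21, DMSO libraries 2.52, 2.98 and 3.20, and belinostat libraries 2.15, 2.59 and 2.87. The groups with and without cytokines did not overlap, while belinostat and DMSO libraries did. The cytokine fold change was 2.41 ± 0.19 (SE, n = 6 against 6, adjusted p = 5.23e-21) and the belinostat fold change -0.42 ± 0.15 (adjusted p = 0.134). Another CPXM2 peak, in intron 4 at chr10:123808941-123809231, had 1.02, 1.42 and 2.06 in DMSO against -0.45, -0.34 and 0.32 in unstimulated libraries. Its fold change was 2.06 ± 0.29 (SE, n = 6 against 6, adjusted p = 1.07e-07). The other named CPXM2 peak, at chr10:123743756-123744377, rose by 1.55 ± 0.28 (SE, n = 6 against 6, adjusted p = 2.27e-05). Thus several sites spread over 1 gene opened. FAM110B held 3 of the 6 largest openings, with cytokine fold changes of 2.16 ± 0.27, 2.07 ± 0.24 and 2.06 ± 0.24 (SE, adjusted p = 8.83e-10, 1.11e-11 and 3.71e-11). In intron 2 of COL24A1, a fibrillar collagen gene, the peak at chr1:86138623-86139383 had 2.31, 2.87 and 3.73 in DMSO and 1.07, 1.41 and 1.67 in unstimulated libraries. This amounted to 1.78 ± 0.18 (SE, n = 6 against 6, adjusted p = 3.28e-14).

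Several opened sites were still above the unstimulated level after belinostat. In the residual comparison, the largest rises among strong peaks with groups apart were again in FAM110B and CPXM2, where the first peak of each gene had fold changes of 2.07 ± 0.28 and 1.99 ± 0.21 (SE, adjusted p = 1.23e-09 and 8.56e-15), and in intron 3 of MAST4, a microtubule-associated kinase, at chr5:66884874-66885338. MAST4 had -0.39, -0.05 and 0.55 in unstimulated, 0.82, 1.46 and 1.77 in DMSO and 1.28, 1.42 and 2.29 in belinostat libraries. Its belinostat fold change was 0.23 ± 0.22 (SE, n = 6 against 6, adjusted p = 0.623) and its residual fold change 1.82 ± 0.28 (adjusted p = 6.53e-08). The residual and cytokine comparisons share the unstimulated libraries.

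Among the strong closed sites with groups apart, the peak in intron 7 of PIGU, a subunit of the complex that attaches GPI anchors to proteins, at chr20:34605019-34605418 fell most. Unstimulated libraries had 1.92, 2.26 and 2.72, DMSO libraries 0.27, 0.78 and 1.39, and belinostat libraries -0.57, -0.13 and 1.06. All unstimulated libraries stood above all others, and the fold change was -1.67 ± 0.21 (SE, n = 6 against 6, adjusted p = 1.84e-09). In ASIC2, an acid-sensing ion channel gene, the peak at chr17:33766448-33767231 had 2.86, 3.29 and 3.41 in unstimulated, 1.02, 1.62 and 2.37 in DMSO and 1.16, 1.34 and 1.96 in belinostat libraries, a fold change of -1.60 ± 0.16 (SE, adjusted p = 5.29e-14). Peaks in DOCK8, a guanine nucleotide exchange factor, and RYR2, a calcium release channel, fell with fold changes of -1.58 ± 0.24 and -1.37 ± 0.21 (SE, adjusted p = 5.92e-07 and 4.18e-07). The peak over SFRP4, which encodes a secreted Wnt antagonist, had a fold change of -1.33 ± 0.23 (SE, adjusted p = 1.26e-05). In HMCES, a shield of abasic sites in DNA, the peak at chr3:129304064-129304827 went from 2.24, 2.87 and 3.19 in unstimulated to 0.58, 1.57 and 2.08 in DMSO and 1.72, 2.42 and 2.94 in belinostat libraries. The cytokine fold change was -1.36 ± 0.18 and the belinostat fold change 0.92 ± 0.20 (SE, adjusted p = 1.07e-08 and 0.00127), and its belinostat libraries overlapped both other groups.

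**Figure D1:**
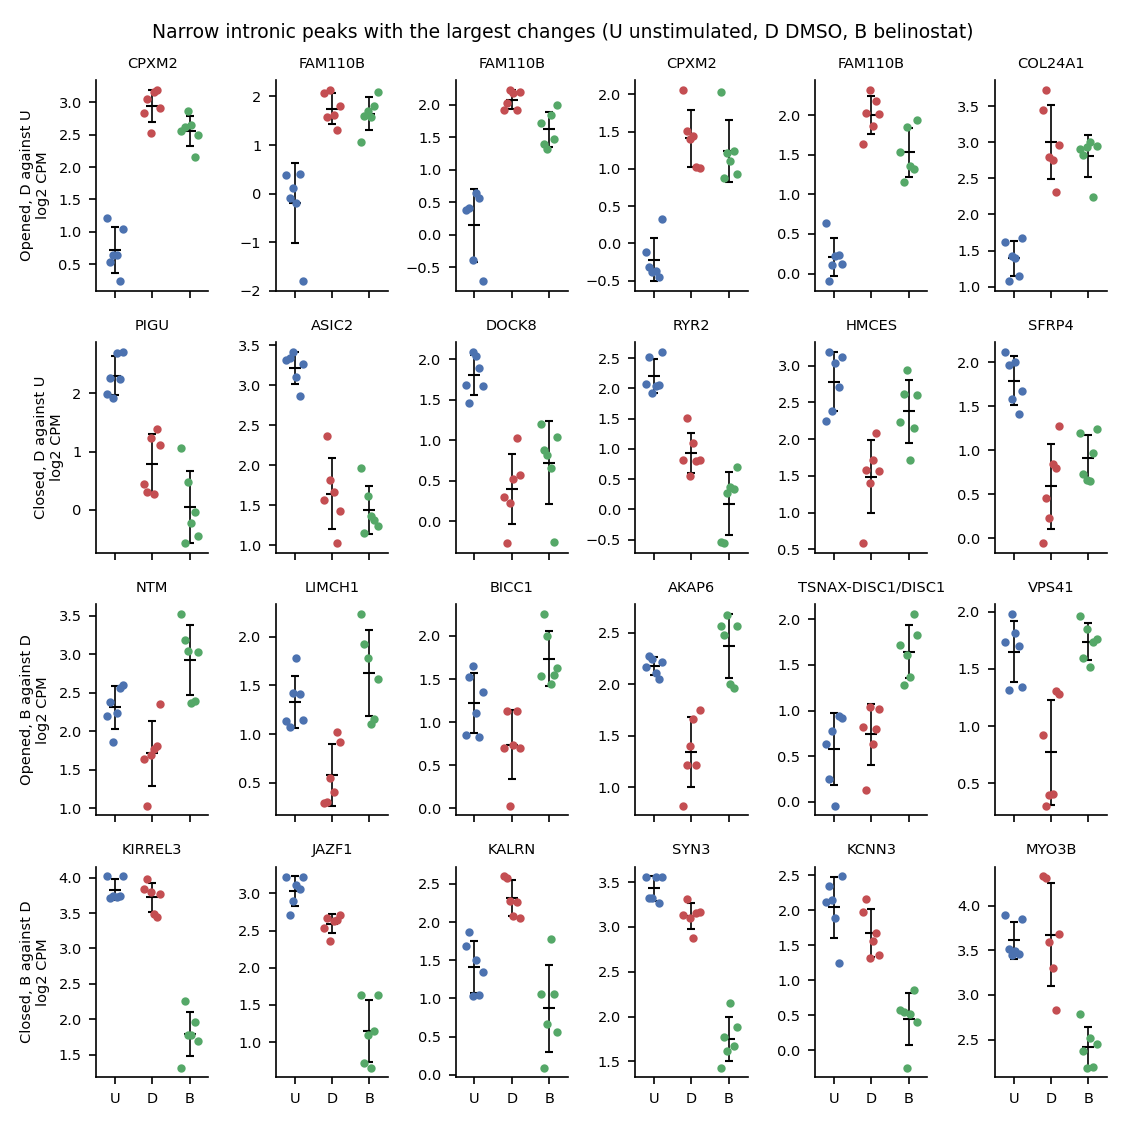
Each panel plots log2 CPM (vertical axis) of 1 narrow intronic peak in 6 unstimulated (U), 6 DMSO (D) and 6 belinostat (B) libraries, with points for libraries and black bars for the mean ± SD; rows hold the 6 largest openings and closings among called strong peaks whose groups did not overlap, in the cytokine and then the belinostat comparison. In KIRREL3 all 6 belinostat libraries lie at or below 2.26 while every other library lies at or above 3.45, and in the first CPXM2 panel all unstimulated libraries lie at or below 1.21.

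Belinostat libraries differed from DMSO libraries at far fewer sites, and closing outweighed opening. Opened narrow intronic peaks numbered 440 (0.714%, against 0.607% of all peaks) and closed ones 1010 (1.64%, against 1.75%), both near the background. These counts moved with single libraries. Without DMSO replicate 2 the shares were 0.351% opened and 1.06% closed, and the opened share was 0.450% without DMSO replicate 1 and 0.425% without belinostat replicate 2. The split also moved with scaling, since library totals gave 797 opened and 805 closed, loess offsets 698 and 809, and TMM over the weaker peaks 78 and 621. Strong peaks with every belinostat library on 1 side of every DMSO library numbered 26 opened (0.0422%, against 0.0415% of all peaks) and 408 closed (0.662%, against 0.714%). Only 22.2% of narrow intronic peaks but 28.6% of all peaks were strong, which lowers the former shares. Among strong peaks alone, overlapping or not, 1.47% of narrow intronic and 1.04% of all peaks were opened, and 6.93% and 5.81% closed.

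KIRREL3, which encodes an immunoglobulin-like cell adhesion protein, held the largest closing among the strong peaks with groups apart, in intron 6 at chr11:126459556-126460178. Unstimulated libraries had 3.72, 3.74 and 4.02, DMSO libraries 3.45, 3.78 and 3.97, and belinostat libraries 1.32, 1.78 and 2.26. Belinostat libraries stood well below both other groups, which overlapped each other. The belinostat fold change was -1.99 ± 0.16 (SE, n = 6 against 6, adjusted p = 6.31e-21) and the cytokine fold change -0.10 ± 0.12 (adjusted p = 0.586). In intron 1 of JAZF1, which encodes a zinc finger subunit of the NuA4 acetyltransferase complex, the peak at chr7:28163892-28164297 had 2.36, 2.64 and 2.72 in DMSO and 0.65, 1.12 and 1.63 in belinostat libraries. It fell by 1.52 on the log2 scale (SE 0.20, n = 6 against 6, adjusted p = 2.81e-09), after a smaller cytokine fold change of -0.46 ± 0.15 (adjusted p = 0.0174). SYN3, a synapsin gene, had 2.87, 3.14 and 3.31 in DMSO and 1.43, 1.72 and 2.15 in belinostat libraries at chr22:32880041-32880434, a fold change of -1.40 ± 0.17 (SE, adjusted p = 1e-10). KCNN3, a calcium-activated potassium channel gene, and MYO3B, a myosin gene, fell with -1.40 ± 0.26 and -1.39 ± 0.16 (SE, adjusted p = 7.3e-05 and 1.38e-11). KALRN, which encodes a guanine nucleotide exchange factor, is described below with the sites called in both comparisons.

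In the opposite direction, intron 2 of NTM, a GPI-anchored adhesion protein of neurons, held the largest opening with belinostat among strong peaks with groups apart, at chr11:132062541-132062996. Among called peaks with overlapping groups, one in GPC6, given below, rose more than NTM. One in UBR2, also given below, fell more than KIRREL3. At the NTM peak, unstimulated libraries had 1.86, 2.31 and 2.60, DMSO libraries 1.03, 1.73 and 2.35, and belinostat libraries 2.36, 3.03 and 3.53. All belinostat libraries lay above all DMSO libraries, by a narrow margin at the edge. The belinostat fold change was 1.25 ± 0.18 (SE, n = 6 against 6, adjusted p = 9.05e-08). In intron 10 of LIMCH1, an activator of non-muscle myosin, the peak at chr4:41632428-41632806 had 1.07, 1.28 and 1.78 in unstimulated, 0.29, 0.48 and 1.02 in DMSO and 1.10, 1.67 and 2.23 in belinostat libraries, a belinostat fold change of 1.18 ± 0.25 (SE, adjusted p = 0.000999). Peaks in BICC1, an RNA-binding protein, AKAP6, a kinase anchor, the overlapping pair TSNAX-DISC1 and DISC1, and VPS41, a subunit of a vesicle tethering complex, rose by 1.08 ± 0.24, 1.07 ± 0.19, 1.04 ± 0.24 and 1.03 ± 0.23 (SE, adjusted p = 0.00165, 4.59e-05, 0.00339 and 0.00257). In LIMCH1, AKAP6 and VPS41 the DMSO libraries all lay below both the unstimulated and the belinostat libraries, and the latter groups overlapped. The TSNAX-DISC1 peak differed in pattern, since its DMSO and unstimulated libraries overlapped.

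For peaks called in both comparisons, which share the DMSO libraries, the values are only set side by side. Against the cytokine change, KALRN (chr3:124206225-124207133) had 1.03, 1.42 and 1.87 in unstimulated, 2.06, 2.27 and 2.60 in DMSO and 0.09, 0.86 and 1.78 in belinostat libraries. Its fold changes were 0.92 ± 0.19 with cytokines and -1.44 ± 0.22 with belinostat (SE, adjusted p = 0.000286 and 3.27e-07). In GPC6, a cell surface heparan sulfate proteoglycan gene, the values were -0.86 ± 0.28 and 1.27 ± 0.28 (SE, adjusted p = 0.0226 and 0.00144), but belinostat replicate 4, at -0.48, lay far below the other belinostat libraries. The cytokine call of GPC6 had adjusted p = 0.0739 with loess offsets, and that of NTM (-0.60 ± 0.19, adjusted p = 0.0158) had 0.232.

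In the same direction, RUNX2, a master factor of bone formation that is also expressed in fibroblasts, had a peak at chr6:45657284-45657607 with 2.26, 2.46 and 3.19 in unstimulated, 1.20, 2.11 and 2.29 in DMSO and 0.09, 0.82 and 1.09 in belinostat libraries. Its fold changes were -0.62 ± 0.17 with cytokines and -1.32 ± 0.23 with belinostat (SE, adjusted p = 0.00699 and 3.03e-05). PLCB1, a phospholipase C gene, had a peak at chr20:8951133-8951724 that stepped down from 3.11, 3.50 and 3.61 through 2.35, 2.72 and 3.00 to 1.03, 1.52 and 1.84, with no overlap at either step. Its fold changes were -0.74 ± 0.14 and -1.31 ± 0.19 (SE, adjusted p = 7.19e-05 and 6.94e-08). The cytokine calls of JAZF1 and RUNX2 had adjusted p = 0.327 and 0.104 with loess offsets, and that of PLCB1 0.0117.

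After belinostat, narrow intronic peaks still differed from unstimulated libraries at 10070 opened sites (16.3%, against 16.8% of all peaks) and 6053 closed ones (9.82%, against 13.7%). Without belinostat replicate 4 the opened share was 10.8%. Library totals gave 18294 opened and 2743 closed, and TMM over the weaker peaks 1649 and 17085. Strong peaks with groups apart numbered 74 opened (0.120%, against 0.168%) and 2443 closed (3.96%, against 5.85%). Among these the largest residual fall was again in PIGU (-2.57 ± 0.26, SE, adjusted p = 5.34e-16). UBR2, a ubiquitin ligase gene, followed with -2.34 ± 0.30 (SE, adjusted p = 6.82e-11), of which the belinostat comparison gave -2.02 ± 0.31 and the cytokine comparison -0.32 ± 0.21 (adjusted p = 9.64e-07 and 0.264). WDPCP, a planar cell polarity effector gene, stepped down from 2.09, 2.39 and 2.89 through 1.02, 1.46 and 1.61 to 0.09, 0.50 and 0.92 at chr2:63192870-63193702. CCNG2, a cyclin G gene, stepped down from 2.51, 2.65 and 2.89 through 1.51, 1.87 and 2.07 to 0.23, 0.72 and 1.20 at chr4:77177248-77177619. In both, each group lay below the one before it with no overlap, and the residual fold changes were -2.22 ± 0.23 and -2.12 ± 0.21 (SE, adjusted p = 1.42e-15 and 2.01e-16).

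Calls went along with the strength of a peak. When all peaks were cut at percentiles of average log2 CPM, 11.4% of the weakest narrow intronic peaks (below the percentile 20) were opened by cytokines and 0.206% were closed. Among the 996 in the top 5%, none was opened and 71.2% were closed (start peaks 84.5%, intergenic peaks of the same width and distance 72.1%). At an unadjusted p under 0.05 edgeR opened 1 of the 996, and DESeq2 called 0 opened, whereas loess offsets called 60. The libraries differed along the same axis, as the 10000 strongest peaks of the series held 35.3 to 39.0% of the counts in unstimulated, 31.8 to 35.2% in DMSO and 28.5 to 34.6% in belinostat libraries. In the fit with loess offsets, which reduce such a trend, 4.56% of strong narrow intronic peaks were closed by cytokines instead of 26.1%, and 3.51% were opened instead of 2.14%. These offsets took the median cytokine fold change (log2) from -0.38 to -0.01 in the top 5% of narrow intronic peaks. In the weakest bin it went only from 0.60 to 0.34, so part of the trend remained among weak peaks.

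With belinostat, distal peaks and start peaks within the same cuts of strength had different shares of closed sites. In the top 5%, 22.4% of narrow intronic peaks were closed, against 23.0% of the intergenic peaks and 1.86% of start peaks. With loess offsets these shares were 16.8%, 18.0% and 1.10%. Among peaks averaging a log2 CPM of 2 or more, 12.0% of 6333 narrow intronic, 13.2% of 5410 intergenic and 2.10% of 17333 start peaks were closed. With loess and GC offsets together the shares were 8.29%, 9.76% and 1.29%. The narrow intronic peaks therefore resembled intergenic ones in these shares, and both exceeded start peaks under each scaling given. The difference between classes was not tested, because peaks are not replicates. The classes were also not matched within these cuts. At 2 or more, median average log2 CPM was 2.78 in narrow intronic, 2.82 in intergenic and 3.97 in start peaks. Median widths were 671, 682 and 973 bp and median GC contents 44.5%, 45.7% and 63.0%. Intronic peaks far from starts and of 1000 bp or more had 15.0% closed in the top 5% and 8.23% at 2 or more.

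**Figure D2:**
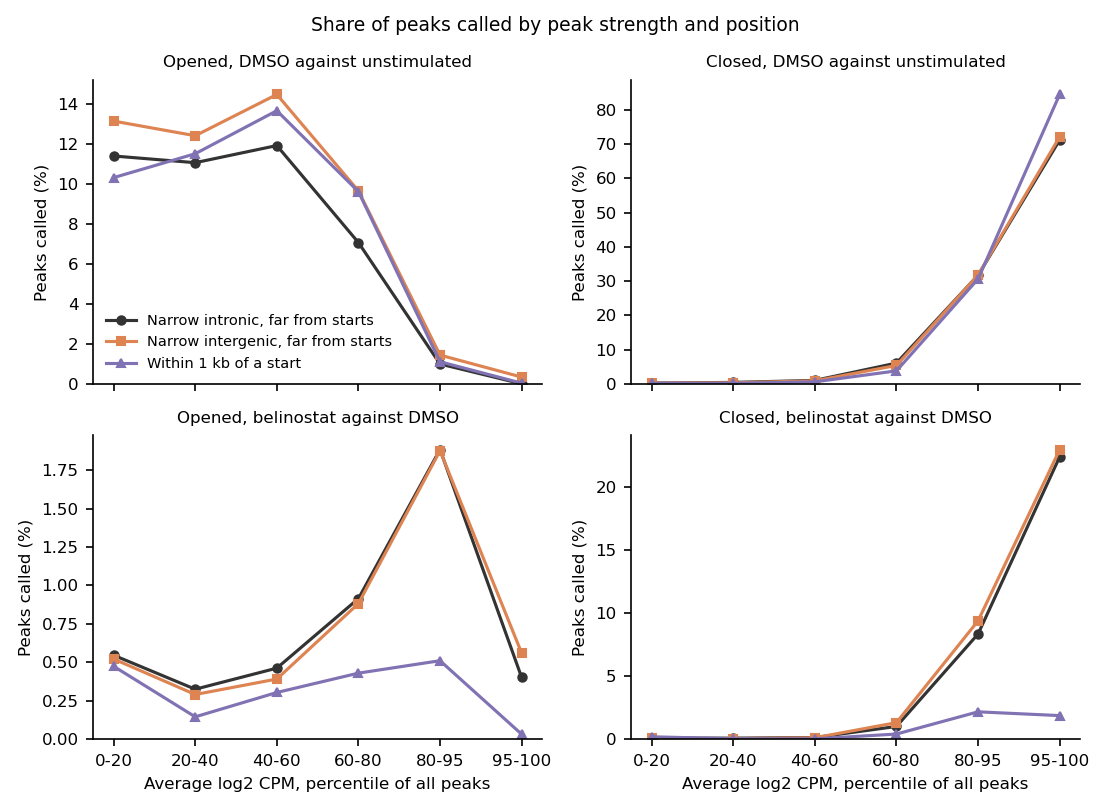
Share of peaks called (vertical axis, %) in 6 bins of average log2 CPM (horizontal axis, percentile of all peaks) for narrow intronic, narrow intergenic and start peaks, for opening and closing in the cytokine and the belinostat comparison. Closing with belinostat reaches 22.4% and 23.0% in the top bin for intronic and intergenic peaks and 1.86% for start peaks, while the 3 classes run close together for closing with cytokines up to the last bin.

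Base composition also moved with the cytokine comparison. In narrow intronic peaks with a GC content under 40%, 1.89% were opened and 11.1% closed, and the median fold change was -0.21. At a GC content of 60% or more, 17.4% were opened and 1.76% closed, and the median was 0.52. Loess offsets left medians of -0.21 and 0.36 at these ends, and loess and GC offsets left 0.01 and 0.25. In the belinostat comparison the medians ran only from -0.02 to 0.08. All peaks had medians of -0.20 under 40% GC and 0.45 at 55 to 60%, where narrow intronic peaks had 0.55. At 60% or more, all peaks had 11.5% opened, 18.8% closed and a median of 0.13, unlike the narrow intronic peaks, and this difference was not tested. Width showed a like contrast, with 0.52% of peaks under 200 bp but 35.5% of those of 750 bp or more closed by cytokines. In all peaks the contrast was wider, with 0.793% and 46.4%. Width went along with strength, as these narrow intronic peaks had median average log2 CPM of -0.38 and 2.57. Their closed shares were 0.459% and 6.18% with loess offsets, and 0.270% and 3.03% with loess and GC offsets. Shares differed little with position within the gene. First introns had 8.47% opened and 6.69% closed by cytokines and later introns 9.46% and 6.32%, and with belinostat the values were 0.75% and 1.71% against 0.77% and 1.63%.

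**Figure D3:**
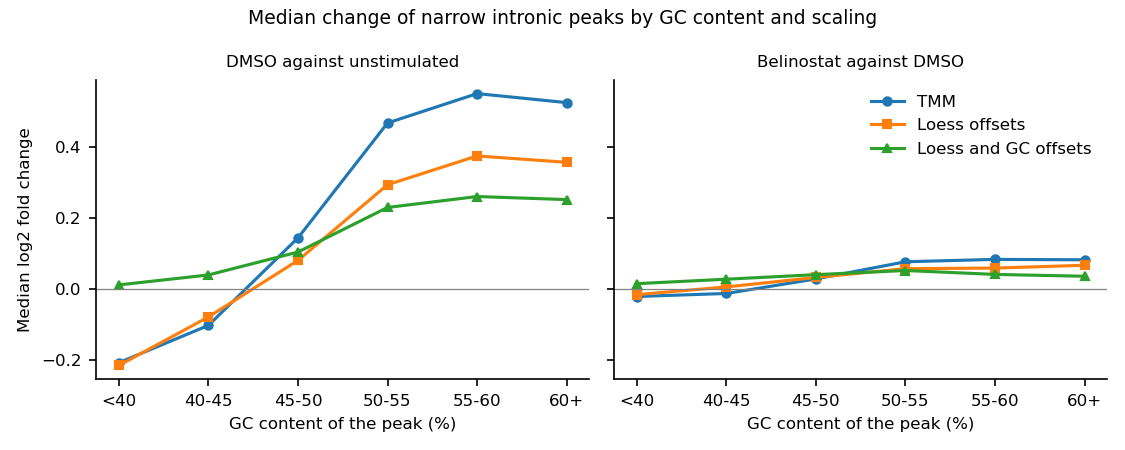
Median log2 fold change of narrow intronic peaks (vertical axis) in 6 bins of GC content (horizontal axis, %), with TMM factors, loess offsets, and loess and GC offsets, for both comparisons. With TMM the cytokine medians climb from -0.21 to 0.52 between the ends, and with loess and GC offsets from 0.01 to 0.25, while the belinostat medians stay between -0.02 and 0.08.

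The limits of the rule did not mark a step in these values. Of the 832 peaks from 900 bp up to the width limit, 40.4% were closed by cytokines and 9.50% by belinostat. The 501 peaks that met the other criteria and were 1000 bp to under 1100 bp wide had 38.9% and 8.38%. Of the 3909 peaks 10 to 11 kb from a start, 9.34% were opened and 6.17% closed by cytokines, and of the 4359 at 9 to 10 kb, 8.33% and 5.62%.

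Short sequences in the central 200 bases separated the strong narrow intronic peaks by their response to belinostat. Among the 2801 peaks with the E-box CAGATG, 10.6% were closed by belinostat, against 5.99% of the 10860 without it. Among the 3355 with the AP-1 word, 8.73% were closed and 0.596% opened, against 6.35% and 1.76% of the 10306 without it. The TEAD word went the other way. Of the 2799 peaks with GGAATG, 3.25% were opened and 4.36% closed, against 1.01% and 7.60% of the 10862 without it. With cytokines, 34.0% of peaks with the TEAD word and 24.0% of those without it were closed, and 21.5% with and 27.6% without the AP-1 word. Each of these differences kept its direction under all 6 scalings. For the E-box, the belinostat closed shares with and without it were 7.93% and 4.47% with loess offsets and 7.75% and 4.17% with loess and GC offsets. For the TEAD word, the opened shares were 7.11% and 2.70% with loess offsets and 7.57% and 2.96% with loess and GC offsets.

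The AP-1 and TEAD words separated further when taken apart. Of the 2709 strong peaks with the AP-1 word and no TEAD word, 0.406% were opened and 9.41% closed by belinostat, whereas of the 2153 with the TEAD word and no AP-1 word, 3.81% were opened and 3.90% closed. Among the peaks plotted by library, 4 of the 6 shown as opened by belinostat (NTM, LIMCH1, AKAP6 and VPS41) held the TEAD word. The E-box was in 4 of the 6 shown as closed (KIRREL3, JAZF1, SYN3 and MYO3B). Each word was in 20.5% of all strong narrow intronic peaks. The plotted peaks were chosen by their change in these libraries and are among the called peaks counted above, so they add no support. Strong peaks with and without the E-box had median average log2 CPM of 1.91 and 1.89 and median GC contents of 44.4% and 44.2%. For the TEAD word these were 1.93 and 1.89, and 44.1% and 44.3%. The AP-1 word was in 16.2% of all narrow intronic peaks but 24.6% of the strong ones. Strong peaks with it also had a higher mean log2 CPM than those without it in every library. The part of strength in the AP-1 split was not tested. The words were not particular to introns, as strong peaks of the whole series had 10.2% closed with and 4.92% without the E-box, 2.74% opened with and 0.70% without the TEAD word, and 9.38% closed with and 5.00% without the AP-1 word. The RUNX word divided the peaks less, with 8.04% closed by belinostat against 6.68% without it, and the C/EBP word divided them into 8.91% and 6.61%. The NF-kB word, GGANTTTCC, was rarer, in 1.12% of strong narrow intronic peaks, with 11.1% closed by belinostat against 6.88% without it. With cytokines 4.58% were opened with it and 2.11% without it. These shares were 8.50% and 3.45% with loess offsets, but 0% and 0.281% with TMM over the weaker peaks. Calls for the other words searched are not given here.

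**Figure D4:**
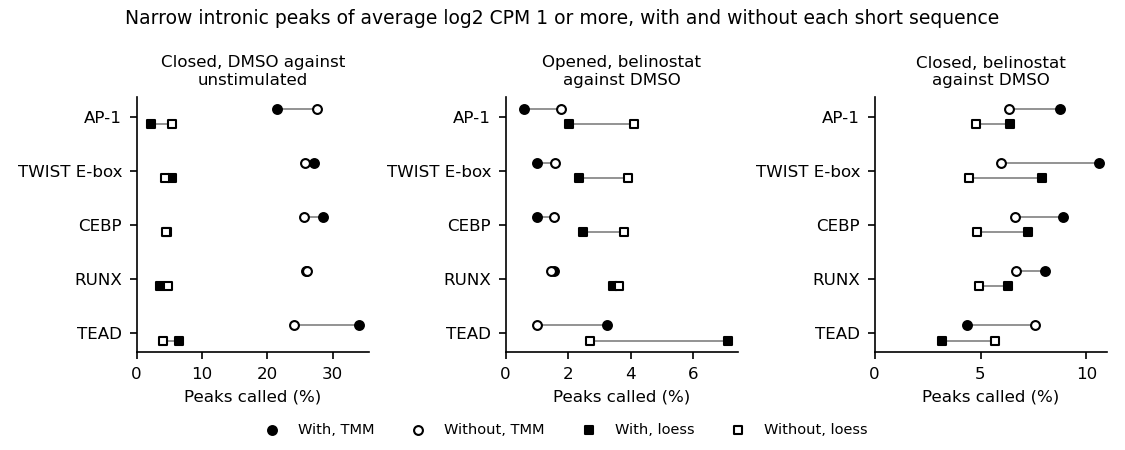
Share of strong narrow intronic peaks called (horizontal axis, %) with (filled) and without (open) each of 5 short sequences (vertical axis), with TMM factors (circles) and loess offsets (squares). The filled symbols lie to the right of the open ones for closing with belinostat at the E-box (10.6% against 5.99%) and for opening with belinostat at the TEAD word (3.25% against 1.01%).

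These differences can be read in each library as the mean log2 CPM of strong narrow intronic peaks with a word minus that of the peaks without it. For the E-box the difference was 0.034 to 0.059 in unstimulated, 0.028 to 0.047 in DMSO and -0.069 to -0.040 in belinostat libraries. The belinostat libraries stood apart from both other groups, which overlapped. For the AP-1 word it was 0.074 to 0.169 in unstimulated, 0.106 to 0.197 in DMSO and 0.036 to 0.101 in belinostat libraries, so the belinostat libraries lay below all DMSO libraries and overlapped the unstimulated ones. For the TEAD word the groups overlapped, with 0.048 to 0.090 in unstimulated, -0.161 to 0.100 in DMSO and -0.006 to 0.158 in belinostat libraries. Within the groups, belinostat replicates 1 to 3 had 0.148 to 0.158 and DMSO replicates 1 to 3 had -0.161 to -0.017, while replicates 4 to 6 had -0.006 to 0.100 and 0.027 to 0.100 and overlapped. This division by replicate number was seen in the values, no label names a batch, and its part in the TEAD result was not tested. As these scores run over peaks seen to differ in the same libraries, no p is given.

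**Figure D5:**
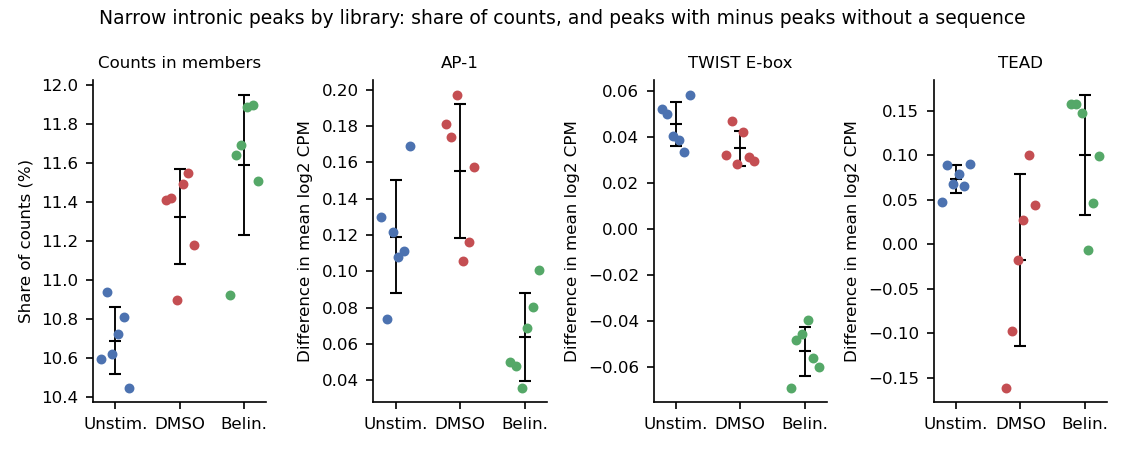
Points are libraries in 3 groups of 6 and black bars the mean ± SD; the left panel shows the share of counts in narrow intronic peaks (%) and the others the mean log2 CPM of strong peaks with a word minus that without it. The E-box difference is above 0 in all 12 libraries without belinostat and below 0 in the 6 with it, and the TEAD differences overlap between groups.

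As a whole the narrow intronic peaks took a slightly larger share of the counts after the pulses, 10.4 to 10.9% in unstimulated (10.7% ± 0.173, SD, n = 6), 10.9 to 11.5% in DMSO (11.3% ± 0.244) and 10.9 to 11.9% in belinostat libraries (11.6% ± 0.359). The rise came with the weak ones, whose share went from 2.75% to 3.85% and 4.37%, while the strong ones went from 7.94% to 7.47% and 7.22%.

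Narrow intronic peaks with high levels per length included those in GRK5, ABLIM3, LRP5 and PITPNM2. Averaged over the groups and divided by width, the peak in intron 4 of GRK5, a G protein-coupled receptor kinase (chr10:119413713-119414703), had 103 CPM per kb. ABLIM3, an actin-binding LIM protein, had 91.2, LRP5, a Wnt coreceptor, 84.1 and PITPNM2, a phosphatidylinositol transfer protein, 82.6 CPM per kb. GRK5 had log2 CPM of 6.76, 6.90 and 7.08 in unstimulated, 6.50, 6.71 and 6.87 in DMSO and 6.12, 6.35 and 6.60 in belinostat libraries. The cytokine fold changes of these 4 were negative with TMM factors and positive with loess offsets, from 0.04 to 0.26, so no direction is given for them.

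Narrow intronic peaks in extracellular matrix genes were taken from a list of 35 genes, 25 of which held 479 such peaks. With cytokines 8 were opened (1.67%) and 80 closed (16.7%), against 9.51% and 9.73% of all peaks, and the median log2 fold change was -0.16 against 0.13 over all peaks. Loess offsets left 8 opened and 23 closed. THSD4, which encodes a protein that promotes fibrillin assembly, had the smallest cytokine p, at chr15:71634851-71635231, with 1.67, 1.85 and 2.11 in unstimulated and 0.45, 0.75 and 1.04 in DMSO libraries and a fold change of -1.27 ± 0.22 (SE, adjusted p = 1.2e-05). LAMB1, a laminin chain gene, had the smallest belinostat p, in intron 13 at chr7:107971900-107972624, with 3.81, 3.96 and 4.16 in unstimulated, 3.13, 3.46 and 3.67 in DMSO and 2.10, 2.27 and 2.70 in belinostat libraries. No groups overlapped there, and its belinostat fold change was -1.12 ± 0.15 (SE, adjusted p = 1.17e-08). Contractile genes held 489 peaks in 19 of 30 genes. With cytokines 16 were opened (3.27%) and 57 closed (11.7%), against 9.51% and 9.73% of all peaks. With belinostat 5 were opened (1.02%) and 7 closed (1.43%), against 0.607% and 1.75%. In intron 3 of MYH11, smooth muscle myosin heavy chain, the fold change with cytokines was -0.67 ± 0.11 (SE, adjusted p = 5.25e-06), and in intron 1 of LMOD1, leiomodin of smooth muscle, the fold change with belinostat was -0.73 ± 0.15 (SE, adjusted p = 0.000644). These counts moved with the scaling, since library totals gave 26 opened and 35 closed peaks in matrix genes and 34 and 20 in contractile genes with cytokines. With belinostat the contractile split turned to 13 opened and 4 closed with library totals and 12 and 5 with loess offsets.

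Transcription factors linked to inflammatory fibroblasts held 154 peaks in 12 of 17 genes. With cytokines 5 were opened (3.25%) and 27 closed (17.5%), against 9.51% and 9.73% of all peaks. Library totals gave 9 opened and 9 closed and loess offsets 1 and 3, so no direction is given for the list. With belinostat 1 was opened (0.649%) and 6 closed (3.90%), against 0.607% and 1.75% of all peaks. Several factors of this list were named by the study from tissue and then examined in these libraries, so the list is not independent evidence. BNC2, a zinc finger factor of fibroblasts, closed with cytokines in intron 1 at chr9:16792350-16793237 (-0.95 ± 0.14, SE, adjusted p = 2.67e-07; 0.0548 with loess and GC offsets). RUNX2 closed with belinostat in intron 5 at chr6:45480152-45480977, where DMSO libraries had 3.15, 3.86 and 4.08 and belinostat libraries 2.68, 3.03 and 3.10 (-0.83 ± 0.14, SE, adjusted p = 8.08e-06). General mesenchymal factors held 636 peaks in 31 of 36 genes. With cytokines 32 were opened (5.03%) and 54 closed (8.49%), against 9.51% and 9.73% of all peaks, and library totals gave 56 and 15. With belinostat 1 was opened (0.157%) and 14 closed (2.20%), against 0.607% and 1.75%. RUNX1 alone held 164 of the 636 peaks, of which belinostat opened 1 and closed 8. Its peak at chr21:35924682-35925359 had 1.54, 2.27 and 3.34 in DMSO and 1.28, 1.43 and 1.95 in belinostat libraries, which overlapped, with a fold change of -1.15 ± 0.20 (SE, adjusted p = 1.68e-05).

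Genes of the receptors and signal paths of the 4 cytokines had few such peaks, 74 in 15 of 36 genes. With cytokines 5 were opened and 5 closed (6.76% each, against 9.51% and 9.73% of all peaks), but library totals gave 10 and 2 and TMM over the weaker peaks 1 and 16. With belinostat none was opened and 3 closed (4.05%), against 0.607% and 1.75% of all peaks. At an unadjusted p under 0.05 edgeR gave 5 opened by belinostat, DESeq2 called 0 and loess offsets 1. In TRAF3IP2, the adaptor of the IL-17 receptor, the peak in intron 2 had a cytokine fold change of -0.48 ± 0.12 (SE, adjusted p = 0.00257), which became 0.06 with loess and GC offsets. STAT5B, a JAK target, had a belinostat fold change of -0.56 ± 0.14 in intron 1 (SE, adjusted p = 0.012). Growth factor and morphogen signalling genes held 506 peaks in 26 of 36 genes. With cytokines 14 were opened (2.77%) and 58 closed (11.5%), against 9.51% and 9.73% of all peaks, and library totals gave 31 and 20. With belinostat 4 were opened (0.791%) and 9 closed (1.78%), against 0.607% and 1.75%. Library totals gave 13 and 8 with belinostat, and loess offsets 11 and 7. In GLI2, a Hedgehog pathway factor, the fold change with cytokines was -0.69 ± 0.13, and in ROR1, a Wnt receptor, the fold change with belinostat was -0.82 ± 0.18 (SE, adjusted p = 7.18e-05 and 0.00118). Histone deacetylase genes, the targets of belinostat and their relatives, held 93 peaks in 4 of 10 genes. Belinostat opened 1 of these peaks (1.08%) and closed 2 (2.15%), against 0.607% and 1.75% of all peaks. A peak in intron 2 of HDAC9 had a cytokine fold change of -1.01 ± 0.14 and another, in intron 21, a belinostat fold change of -0.79 ± 0.22 (SE, adjusted p = 2.77e-08 and 0.0235).

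Genes of other cell types held narrow intronic peaks as well. All 23 neural genes of the list held 998, with a median cytokine fold change of 0.56 against 0.13 over all peaks; 161 were opened and 30 closed, and loess offsets left 43 and 11. TMM over the weaker peaks turned the balance of the neural list to 48 opened and 122 closed, while its median stayed above that of all peaks (0.15 against -0.30). The host genes with most narrow intronic peaks showed the same. PTPRN2 held 298, of which cytokines opened 79 and closed 0, DLGAP2 held 204 (63 and 0), KAZN 192 (23 and 4), CAMTA1 178 (28 and 3), CDH4 166 (41 and 0) and DAB1 164 (29 and 4). By contrast, RUNX1, with 164 as well and chosen here after its values were seen, had 6 opened and 20 closed. In PTPRN2, DLGAP2 and CDH4 the closed count was also 0 at an unadjusted edgeR p under 0.05, with DESeq2 and with loess offsets. Most of the peaks in the first 6 genes were weak, with medians of average log2 CPM from -0.26 to 0.03, against 0.46 in RUNX1. Over all narrow intronic peaks, 9.11% were opened and 6.57% closed by cytokines. Peaks of 1 gene are not replicates.

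Immune genes held 198 peaks in 17 of 24 genes. With cytokines 23 were opened (11.6%) and 11 closed (5.56%), against 9.51% and 9.73% of all peaks. TMM over the weaker peaks gave 11 and 30. With belinostat 4 were opened (2.02%) and 2 closed (1.01%), against 0.607% and 1.75%. The FLI1 peak in intron 1 closed with cytokines (-0.87 ± 0.14, SE, adjusted p = 5.33e-06), and a peak shared by DOCK2 and INSYN2B opened with belinostat (1.28 ± 0.27, SE, adjusted p = 0.000976). Epithelial genes held 106 in 11 of 23 genes, 11 opened and 13 closed by cytokines (10.4% and 12.3%, against 9.51% and 9.73% of all peaks). Belinostat opened 0 and closed 2 (1.89%), against 0.607% and 1.75% of all peaks. The cytokine split was 17 and 6 with library totals and 2 and 8 with loess offsets. At an unadjusted edgeR p under 0.05 belinostat opened 12 of them, and DESeq2 and loess offsets called 0 opened. In intron 2 of CDH1, the E-cadherin gene, at chr16:68786689-68787306, log2 CPM was 3.99, 4.23 and 4.59 in unstimulated, 2.92, 3.47 and 3.74 in DMSO and 1.89, 2.48 and 3.41 in belinostat libraries. The fold changes were -0.81 ± 0.13 with cytokines and -0.87 ± 0.16 with belinostat (SE, adjusted p = 2.17e-06 and 3.39e-05). Endothelial genes held 122 in 12 of 20 genes. With cytokines 8 were opened (6.56%) and 12 closed (9.84%), against 9.51% and 9.73% of all peaks, and library totals gave 21 and 1. With belinostat 1 was opened (0.820%) and 5 closed (4.10%), against 0.607% and 1.75%, and loess offsets gave 5 and 3. Intron 6 of ERG held a weak peak, with 1 to 12 counts per library, that rose with cytokines (1.72 ± 0.43, SE, adjusted p = 0.00295). Intron 7 of PECAM1 held a strong one that closed with belinostat, from 2.65, 3.21 and 3.40 in DMSO to 1.56, 1.71 and 2.06 (-1.38 ± 0.17, SE, adjusted p = 4.59e-10).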

How the data were processed

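The deposited table gives unnormalized counts: fragments that the authors counted in each consensus peak, with 1 column per library, matched to the library titles. Per the methods of the study, the authors trimmed adaptors, ran the ENCODE pipeline for ATAC-seq on hg38, called peaks with MACS2, removed blacklisted regions and counted fragments with csaw. Reads outside peaks, fragment length and transposase offsets were not analysed here, and the authors' scaling on background bins was replaced by TMM factors from the peak counts, so differences in background between libraries can pass into weak peaks. The narrow intronic peaks, gene lists, words and tests were chosen with earlier results of these data known.

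Counts were fitted with edgeR 4.0.16 (glmQLFit and glmQLFTest, R 4.3.3) with the group as the single term and all 18 libraries in the fit, after a filter of average log2 CPM over -3. Benjamini-Hochberg adjustment ran over the whole table, and peaks with an adjusted p under 0.05 were called. Log2 CPM used a prior count of 2. Other settings were scaling by library totals, by TMM on sums of peak counts in 10 kb bins and by TMM on the weaker 50% of peaks, loess offsets (limma 3.58.1, span 0.3) alone or with a GC term, an average log2 CPM over 0, no filter, a replicate block, only the 2 groups compared, DESeq2 1.42.0, each library left out in turn, and stricter limits of width, distance and gene overlap. The fit was tested on simulated data with known changes in the cytokine comparison over 334857 peaks. Of 50 strong peaks each, it recovered 48 at a simulated fold of 2, 36 at 0.5, 20 at 1.5 and 18 at 0.667. In the simulation, changes of the smaller sizes were thus mostly missed. Only these peaks changed there, far fewer than were called in the real cytokine comparison. The adjustment of p was therefore stricter, and the recovered counts do not give the share missed in the real fit.

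Named peaks followed a rule. For each comparison these were the 6 largest rises and falls among called peaks that averaged a log2 CPM of 1 or more and whose groups did not overlap. Added were the 5 with most CPM per kb, the peaks with the smallest p in each of the 11 gene lists, and the 3 largest changes in either relation among peaks called in both comparisons, as well as the 6 host genes with most peaks. Of the peaks this rule named, 1 is not reported here. Words were searched on both strands in the central 200 bases of the reference sequence. Peak starts are given counted from 1. Depth was 4661678 to 11352032 counts in peaks per library, so a median narrow intronic peak of 3 to 8 counts allows only large changes to be seen. Tables were made with Python 3.11.15, pandas 2.3.3 and numpy 2.4.6, and figures with matplotlib 3.10.9.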

Additional observations from a re-analysis of the deposited data

Results flagged for a closer look

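In 8 of the 180 groups of 6 libraries examined over the named peaks and the shares, 1 library lay farther from the others than Dixon's 95% critical value for 6 samples allows, and chance flags about 1 group in 20. All values are log2 CPM. In the first FAM110B peak, unstimulated replicate 6 had -1.81 (a count of 0) while the other 5 had -0.19 to 0.41. In the CPXM2 peak at chr10:123808941-123809231, belinostat replicate 1 had 2.03 and the others 0.89 to 1.24. In COL24A1, belinostat replicate 5 had 2.24 and the others 2.83 to 3.00. UBR2 was flagged in 2 groups, by DMSO replicate 4 (0.64, others 1.43 to 1.77) and by belinostat replicate 3 (0.66, others -0.57 to -0.22). In GLI2, DMSO replicate 1 had 2.57 and the others 3.25 to 3.63. In FLI1, unstimulated replicate 2 had 3.27 and the others 3.50 to 3.53. In GPC6, belinostat replicate 4 had -0.48 and the others 1.48 to 2.17.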

How the results depend on the processing

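Shares of narrow intronic peaks called moved with the scaling of the libraries. For closing by belinostat the share moved more with the tool, the filter and the width limit, which also changed the number of peaks counted. Opened by cytokines (9.11%) became 15.5% with library totals, 2.21% with TMM over the weaker peaks, 2.59% with loess offsets, 2.52% with loess and GC offsets and 4.13% with DESeq2. Closed by cytokines (6.57%) became 2.35%, 21.5%, 1.73%, 0.928% and 3.21% under these, and 2.66% for peaks under 500 bp. Opened by belinostat (0.714%) became 1.29%, 0.127%, 1.13%, 1.25% and 1.14%, and 1.78% among peaks with an average log2 CPM over 0. Closed by belinostat (1.64%) became 1.01% with TMM over the weaker peaks, 4.77% with DESeq2, 3.09% with an average over 0 and 0.554% under 500 bp. In the residual comparison opened (16.3%) became 29.7%, 2.68%, 6.09% and 6.06% with library totals, TMM over the weaker peaks, loess offsets, and loess and GC offsets, and closed (9.82%) became 4.45%, 27.7%, 4.07% and 2.68%, and 4.37% under 500 bp. The cause was not tested beyond what each offset removes. DESeq2's shares run only over peaks with an adjusted p, and those with an average over 0 only over peaks that pass. In the belinostat comparison DESeq2 closed 937 and opened 223 of 19639. With an average over 0, 1040 were closed and 599 opened of 33687, against 1010 and 440 of 61621 in the main fit. The higher closed shares thus came mainly with fewer peaks counted, and DESeq2's higher opened share came with fewer calls. TMM over 10 kb bins, no filter, only the 2 groups, over 50 kb from a start and 1 gene alone kept every share within 1.5 times.

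Leaving out 1 library gave 5.18 to 10.2% opened and 4.21 to 7.34% closed by cytokines, 0.351 to 0.933% and 1.06 to 2.17% by belinostat, and 10.8 to 18.9% and 8.07 to 10.8% in the residual comparison. The share of counts in narrow intronic peaks differed by 0.636 percentage points between DMSO and unstimulated libraries (0.588 to 0.721 with 1 library left out, 0.936 for peaks under 500 bp, 0.120 for those over 50 kb from a start), and by 0.267 points (0.182 to 0.401) between belinostat and DMSO.

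The labels give the groups the same replicate numbers. The deviations of same-numbered libraries had correlations of -0.133 to 0.106. The best match was the same number in 4 of 18 checks (6 numbers in 3 comparisons). This check over all peaks showed no clear pairing by number, but it cannot exclude shared handling or batches. It also does not look for a division such as replicates 1 to 3 against 4 to 6. A replicate block gave 9.19% and 6.90%, 0.659% and 1.71%, and 15.6% and 9.89%.

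Over 64 fold changes of named peaks and 28 settings, 1746 values kept direction and call, 36 lost the call, 1 gained it and 8 reversed. The reversals were cytokine fold changes of GRK5 (0.0295 with library totals, 0.260 with loess offsets, 0.152 with loess and GC offsets), ABLIM3 (0.153 and 0.185 with the latter offsets), LRP5 (0.0387, loess), PITPNM2 (0.0814, loess) and TRAF3IP2 (0.0603, loess and GC). Counts of 3 to 8 in a median narrow intronic peak limit what can be called among the weak ones.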
